A study of Mus musculus with 9 samples.

Results

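The 10 genes described here are Srebf1, which encodes the transcription factor SREBP1, and 9 genes of enzymes that build, lengthen and desaturate fatty acids: Fasn, Acaca, Scd1, Scd2, Fads1, Fads2, Elovl1, Elovl5 and Elovl6. They were taken by symbol from a table of 15343 genes, and all 10 were found once and passed the filter on low values. The table holds RNA-seq of total RNA from mouse intraperitoneal primary macrophages, marked WT in the titles and of a strain written CF7B1/6. All cells were stimulated with lipopolysaccharide (LPS, a bacterial cell wall component sensed through TLR4) at 100 ng/ml for 6 h. In 3 libraries, called DHA 1 to 3 below, the omega-3 fatty acid DHA (docosahexaenoic acid, 100 µM) was given for 1 h before LPS. In another 3, cpdA 1 to 3, a small molecule agonist of the fatty acid receptor Gpr120 (cpdA, 10 µM) was given for 1 h before LPS. The controls, LPS 1 to 3, have LPS alone in their labels, with no pretreatment or vehicle named. Unstimulated macrophages were not analysed here, so each value is a level under LPS, and the effect of LPS itself on these genes was not measured. Age and sex of the mice, and whether the libraries came from separate animals, are not given, so p-values measure the spread between these libraries only. The series as a whole asks how a Gpr120 agonist and DHA act on inflamed macrophages, and the comparisons below ask what either agent did to the mRNA of the fatty acid genes.

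SREBP1 is made as a membrane protein of the endoplasmic reticulum. It is escorted to the Golgi by SCAP, held back by the INSIG proteins, and cut there to release a factor that enters the nucleus and switches on genes of fatty acid synthesis. The nuclear receptors LXRα and LXRβ (Nr1h3 and Nr1h2) induce Srebf1 itself, and polyunsaturated fatty acids are known to lower SREBP1 activity in liver. In macrophages, the pathway supplies membrane lipids and unsaturated fatty acids, and its later enzymes make the long polyunsaturated chains that are precursors of lipid mediators.

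RefSeq promoter sequences are shown for Srebf1, the regulator, and for Fasn, its classical target, because both hold related sequence elements. RefSeq (build GRCm38.p6) had sequences for 7 of the 10 genes, and Fads1, Scd1 and Scd2 were not matched. Each sequence is the 250 bases before an annotated start, on the gene's strand, 5′ to 3′. The first capitals mark a match, on the opposite strand, to GGTNA and GGTCA with any 5 bases between them, a looser form of the element bound by LXR with RXR, and the second capitals mark TCACCC, the core of a sterol regulatory element. The Srebf1 sequence lies at chr11:60210472-60210721 on the minus strand, and the Fasn sequence at chr11:120824548-120824797 on the minus strand.
Srebf1: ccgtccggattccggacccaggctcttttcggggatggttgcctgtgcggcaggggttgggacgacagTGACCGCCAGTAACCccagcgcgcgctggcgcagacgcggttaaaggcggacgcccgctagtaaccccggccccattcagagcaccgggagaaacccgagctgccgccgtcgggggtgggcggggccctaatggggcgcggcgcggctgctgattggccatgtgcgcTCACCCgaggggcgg
Fasn: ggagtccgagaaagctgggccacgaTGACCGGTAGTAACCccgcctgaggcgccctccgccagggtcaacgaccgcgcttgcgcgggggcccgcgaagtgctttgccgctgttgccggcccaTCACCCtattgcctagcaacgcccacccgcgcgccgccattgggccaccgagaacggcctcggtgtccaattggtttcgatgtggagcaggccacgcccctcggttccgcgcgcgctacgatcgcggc

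The looser LXR letters were written after the Srebf1 sequence had been seen, so its match in Srebf1 is no finding. They occur, on either strand, in 0.177% of 32851 RefSeq promoters of this length. The Fasn match begins 225 bases before the start and the Srebf1 match 182 bases before it. The strict form, AGGTCA repeated after any 4 bases, occurs in 0.0152% of promoters and in none of the 7 matched genes. TCACCC begins 15 bases before the Srebf1 start and 128 bases before the Fasn start, and occurs in 13.8% of all promoters. The longer sterol element TCACNCCAC (1.05% of promoters) was found in none of the 7. The E-box CACGTG (6.02% of promoters) was found in Elovl5, 161 bases before the start, and not in the others. Acaca, Elovl1, Elovl5, Elovl6 and Fads2 held neither capital-marked element in these windows. A wider E-box, CANNTG, which includes CACGTG, occurs in 66.2% of promoters and was found in 5 of the 7 (Srebf1, Fasn, Acaca, Elovl1 and Elovl5). Of the 3 starts annotated for Srebf1, this one alone held either element. Values were deposited by gene and not by transcript, so the SREBP-1a and SREBP-1c forms, which begin at different starts, cannot be told apart.

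Values are normalized counts: a gene's reads in a library divided by 1 size factor for that library. Depth was 13797079 reads in DHA 1 and between 24842170 and 37572822 in the others. The lowest read number behind any value of the 10 genes was 65, for Fads2 in DHA 1, against 84 for Elovl6, 173 for Scd1 and at least 293 for the others. Group differences below are log2 differences of normalized count + 1 with their standard error (SE). They come from limma fitted to 13895 genes, with Benjamini-Hochberg adjustment over all of them and a threshold of 0.05.

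LPS 3 and cpdA 3 stood apart from the other 7 libraries across the whole table. The first principal component (40.5% of the variance) set cpdA 3 apart and the second (28.8%) LPS 3. Il6, the interleukin-6 gene, had 5043 normalized counts in LPS 3 and 125.9 in cpdA 3, against 8666 to 16329 in the other 7, and Il1b had 6840 in cpdA 3. Of 6 markers of resident peritoneal macrophages, Cd5l was low in both (372.4 and 438.2, against 1853 to 2175 elsewhere) and carried the list's sum (961.8 and 963.4, against 2392 to 2695), while Gata6 was highest in cpdA 3 (405.6) and Icam2 and Selp in LPS 3. Of 8 general macrophage markers, Lyz2 was low in both (210386 and 269049, against 447053 to 459826) and carried the lower sums, while Csf1r was highest in cpdA 3 and Cd68, Mertk and Fcgr1 in LPS 3. The nuclear RNAs Malat1, Neat1 and Meg3, listed beforehand as markers of RNA quality, were highest in cpdA 3. Neat1 had 46514 there, against at most 15888 elsewhere, and Malat1 had 4342, against 3964 in cpdA 2. The mitochondrial transcripts of that list were not analysed here, and RNA quality itself was not measured. DHA 1 and cpdA 1, of different groups, differed by a root mean square of 0.356 on the log2 scale over all genes, 7 in rank among 36 pairs of libraries, and by 0.111 over the 10 genes. Measured against sampling noise, which is larger at the low depth of DHA 1, they were the closest of the 36 pairs, at 1.33 times the noise. LPS 1 and LPS 2 differed by 2.00 times, cpdA 1 and cpdA 2 by 3.63 times, and DHA 1 and DHA 3 by 3.72 times. The cause of this closeness was not tested. Results are therefore given for all 9 libraries and again without LPS 3 and cpdA 3, an alternative chosen after the data were seen and called the 7 libraries below.

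In all 9 libraries, Srebf1 was lower in all 6 treated libraries than in any LPS library, as were 9.28% of all genes. Most of the synthesis genes averaged lower with DHA and with cpdA, but none of the 10 passed the test (0.0072% of all genes did for either agent). In the 7 libraries without LPS 3 and cpdA 3, Srebf1, Fasn, Acaca, Scd1, Fads2 and Elovl6 fell with DHA, where 4.04% of all genes fell. Fasn, Acaca and Fads2 fell with cpdA, where 0.885% of all genes fell. Scd2, Fads1, Elovl1 and Elovl5 passed the test in neither fit for either agent against LPS. The plot of normalized counts by library shows every value.

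**Figure D1:**
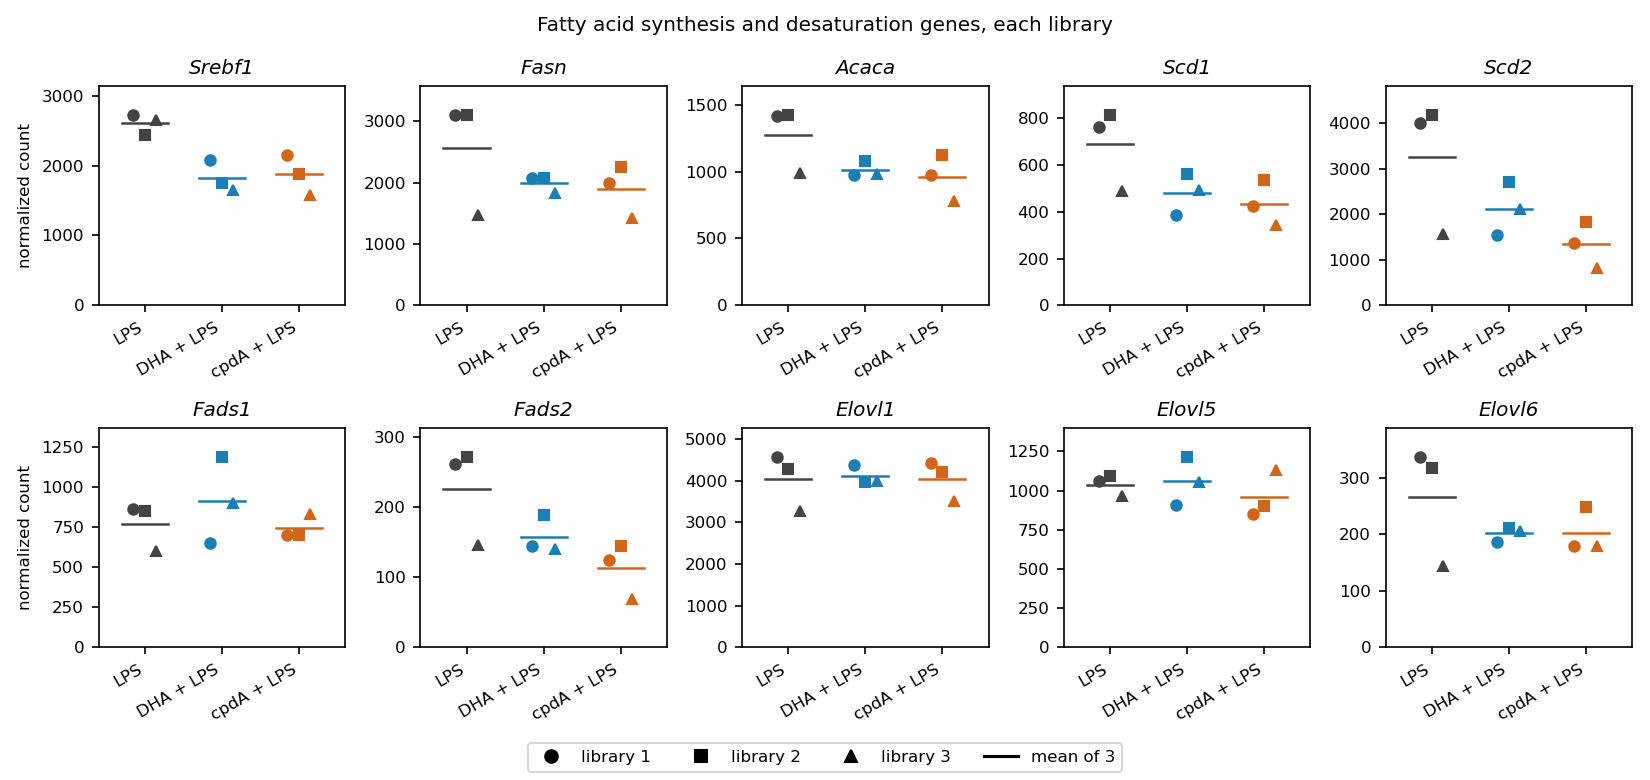
Normalized count (y axis, from 0, a separate scale for each gene) of the 10 genes in each library of the 3 groups; symbols mark the library number and lines the mean of 3. Srebf1 shows all 6 treated libraries below the 3 LPS libraries, whereas for Fasn, Scd2 and Elovl6 the LPS 3 triangle lies far below LPS 1 and LPS 2.

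Srebf1 had normalized counts of 2729, 2432 and 2657 in LPS 1 to 3. It had 2073, 1749 and 1650 in DHA 1 to 3. It had 2152, 1884 and 1584 in cpdA 1 to 3. All 6 treated libraries lay below the lowest LPS library, and LPS 3 lay between LPS 1 and LPS 2, so for this gene the control that stands apart elsewhere did not. All 6 treated libraries lay below all LPS libraries for 9.28% of the 13895 genes. Means were 2606 ± 155 (SD, n = 3) with LPS, 1824 ± 221 with DHA and 1873 ± 284 with cpdA. The difference from LPS was -0.52 with DHA (SE 0.13, 95% interval -0.82 to -0.22, limma adjusted p = 0.231). It was -0.49 with cpdA (SE 0.13, 95% interval -0.78 to -0.19, limma adjusted p = 0.224). Neither passed the threshold. DESeq2 on the recovered reads called Srebf1 lower with both agents (adjusted p = 0.0372 with DHA and 0.0499 with cpdA). In the 7 libraries Srebf1 fell with DHA (-0.50, SE 0.11, limma adjusted p = 0.0192), while the cpdA difference of -0.36 did not pass (SE 0.12, limma adjusted p = 0.233). With cpdA 3 alone left out, the DHA difference passed as well (limma adjusted p = 0.0381), in a fit that called 1.58% of genes lower with DHA and 0% with cpdA. An exon of Srebf1 overlaps one of Rai1, on the opposite strand, by up to 109 bases, and the use of strand in counting is not given. In RNA of a mixed cell sample, fewer expressing cells and less RNA per cell cannot be told apart, which holds for every gene here.

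The first committed steps of synthesis are run by Acaca, acetyl-CoA carboxylase 1, which makes malonyl-CoA, and Fasn, fatty acid synthase, which joins it into palmitate. Fasn had normalized counts of 3102, 3106 and 1478 in LPS 1 to 3. It had 2071, 2073 and 1826 in DHA 1 to 3. It had 1997, 2252 and 1427 in cpdA 1 to 3. LPS 1 and LPS 2 lay above all treated libraries, and LPS 3 lay below 5 of the 6. Means were 2562 ± 939 (SD, n = 3) with LPS, 1990 ± 142 with DHA and 1892 ± 423 with cpdA, and the differences from LPS were -0.29 (SE 0.28, limma adjusted p = 0.663) and -0.38 (SE 0.28, limma adjusted p = 0.558). The control spread was wider than the difference. Across the 7 libraries, Fasn fell by 0.64 with DHA (SE 0.09, limma adjusted p = 0.0020) and by 0.55 with cpdA (SE 0.10, limma adjusted p = 0.0158). Set against LPS 3 alone, the DHA mean was 0.43 higher, so the direction for Fasn depends on which control library is used.

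Acaca had normalized counts of 1416, 1426 and 987.4 in LPS 1 to 3. It had 976.4, 1077 and 983.8 in DHA 1 to 3. It had 974.5, 1123 and 776.9 in cpdA 1 to 3. Again LPS 1 and LPS 2 lay above every treated library, and LPS 3 lay among them. The differences from LPS were -0.32 with DHA (SE 0.17, limma adjusted p = 0.424) and -0.41 with cpdA (SE 0.17, limma adjusted p = 0.320). Once LPS 3 and cpdA 3 were left out, Acaca fell by 0.49 with DHA (SE 0.09, limma adjusted p = 0.0088) and by 0.44 with cpdA (SE 0.10, limma adjusted p = 0.0486). With replicate number as a block the cpdA difference did not pass (limma adjusted p = 0.0552). Acaca shares 55.7% of the 36-base stretches of its longest transcript with the annotated gene Gm5182, so its counts are uncertain.

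Elovl6 extends palmitate to stearate, the step after Fasn. It had normalized counts of 338.0, 318.0 and 144.3 in LPS 1 to 3. It had 187.3, 212.0 and 207.0 in DHA 1 to 3, and 178.8, 249.3 and 180.2 in cpdA 1 to 3. LPS 3 was the lowest of all 9 libraries and LPS 1 and LPS 2 the highest. The differences from LPS were -0.30 with DHA (SE 0.30, limma adjusted p = 0.661) and -0.32 with cpdA (SE 0.30, limma adjusted p = 0.659). In the fit of 7 libraries, Elovl6 fell by 0.70 with DHA (SE 0.15, limma adjusted p = 0.0187), and the cpdA difference of -0.63 did not pass (SE 0.16, limma adjusted p = 0.0970).

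Scd1 and Scd2 are stearoyl-CoA desaturases, which place the first double bond and make oleate and palmitoleate. Scd2 was the more abundant in these macrophages and had normalized counts of 4004, 4195 and 1558 in LPS 1 to 3. It had 1538, 2707 and 2112 in DHA 1 to 3. It had 1367, 1839 and 822.1 in cpdA 1 to 3. LPS 1 and LPS 2 were the highest of the 9, LPS 3 lay among the treated libraries, and cpdA 3 was the lowest. The difference from LPS was -0.52 with DHA (SE 0.42, 95% interval -1.48 to 0.43, limma adjusted p = 0.585). With cpdA it was -1.22, the largest of the 10 genes (SE 0.42, 95% interval -2.17 to -0.27, limma adjusted p = 0.259). In the 7 libraries the differences were -0.99 (SE 0.24, limma adjusted p = 0.0620) and -1.37 (SE 0.26, limma adjusted p = 0.0794), and neither passed. With replicate number as a block both differences passed in these libraries (limma adjusted p = 0.0271 with DHA and 0.0172 with cpdA). DESeq2 on all 9 libraries called Scd2 lower with cpdA (adjusted p = 0.0458).

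Scd1 had normalized counts of 760.8, 814.7 and 490.1 in LPS 1 to 3. It had 385.6, 561.5 and 490.8 in DHA 1 to 3, and 423.2, 536.2 and 345.0 in cpdA 1 to 3. LPS 1 and LPS 2 lay above all treated libraries and LPS 3 among them. The differences were -0.50 with DHA (SE 0.23, limma adjusted p = 0.367) and -0.65 with cpdA (SE 0.23, limma adjusted p = 0.266). Among the 7 libraries, Scd1 fell by 0.73 with DHA (SE 0.15, limma adjusted p = 0.0182), and the cpdA difference of -0.72 missed the threshold (SE 0.17, limma adjusted p = 0.0669) but passed in edgeR on the same libraries (quasi-likelihood adjusted p = 0.0363) and in limma with replicate number as a block (adjusted p = 0.0242). Scd1 and Scd2 share 7.23% and 5.94% of their 36-base stretches with other genes, chiefly Scd3 and each other.

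Fads2 and Fads1 are the delta-6 and delta-5 desaturases, which act in turn on polyunsaturated fatty acids of the omega-6 and omega-3 series. Fads2 had normalized counts of 260.8, 272.0 and 146.3 in LPS 1 to 3. It had 144.9, 188.3 and 140.2 in DHA 1 to 3, and 124.9, 144.3 and 68.8 in cpdA 1 to 3. All cpdA libraries lay below all LPS libraries, with LPS 3 just above cpdA 2, and the DHA libraries overlapped LPS 3. The differences were -0.48 with DHA (SE 0.32, limma adjusted p = 0.511) and -1.01 with cpdA (SE 0.32, 95% interval -1.74 to -0.29, limma adjusted p = 0.242). In the 7 libraries Fads2 fell with both, by 0.76 with DHA (SE 0.16, limma adjusted p = 0.0162) and by 0.98 with cpdA (SE 0.17, limma adjusted p = 0.0151).

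Fads1 had normalized counts of 863.0, 847.0 and 601.6 in LPS 1 to 3. It had 653.2, 1189 and 901.4 in DHA 1 to 3, and 701.5, 698.6 and 833.9 in cpdA 1 to 3. The groups overlapped throughout, with DHA 2 the highest library and LPS 3 the lowest. The differences were 0.22 with DHA (SE 0.22, 95% interval -0.27 to 0.72, limma adjusted p = 0.660) and -0.04 with cpdA (SE 0.22, 95% interval -0.53 to 0.46, limma adjusted p = 0.960).

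Elovl5 lengthens the polyunsaturated chains made by FADS2, and Elovl1 lengthens saturated and monounsaturated chains to very long ones for sphingolipids. Elovl5 had normalized counts of 1060, 1091 and 962.8 in LPS 1 to 3. It had 909.5, 1217 and 1052 in DHA 1 to 3, and 848.6, 901.1 and 1133 in cpdA 1 to 3. The 3 groups overlapped, with DHA 2 and cpdA 3 highest. The differences were 0.02 with DHA (SE 0.14, 95% interval -0.29 to 0.33, limma adjusted p = 0.957) and -0.12 with cpdA (SE 0.14, 95% interval -0.43 to 0.19, limma adjusted p = 0.722). Elovl1 had normalized counts of 4579, 4278 and 3277 in LPS 1 to 3. It had 4371, 3971 and 3990 in DHA 1 to 3, and 4419, 4200 and 3514 in cpdA 1 to 3. LPS 3 and cpdA 3 were the lowest, and the groups overlapped. The differences were 0.04 with DHA (SE 0.14, 95% interval -0.29 to 0.36, limma adjusted p = 0.929) and 0.01 with cpdA (SE 0.14, 95% interval -0.32 to 0.33, limma adjusted p = 0.987). In 9 libraries, Elovl1 and Elovl5 had the narrowest intervals beside Srebf1. The estimates for Srebf1 lay below the lower bounds of both genes for the same agent, but its own intervals overlapped theirs. The genes were not tested against each other. Across the 7 libraries, the cpdA differences were -0.36 for Srebf1, -0.30 for Elovl5 (95% interval -0.56 to -0.03) and -0.04 for Elovl1. With DHA they were -0.50, -0.03 and -0.11.

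**Figure D2:**
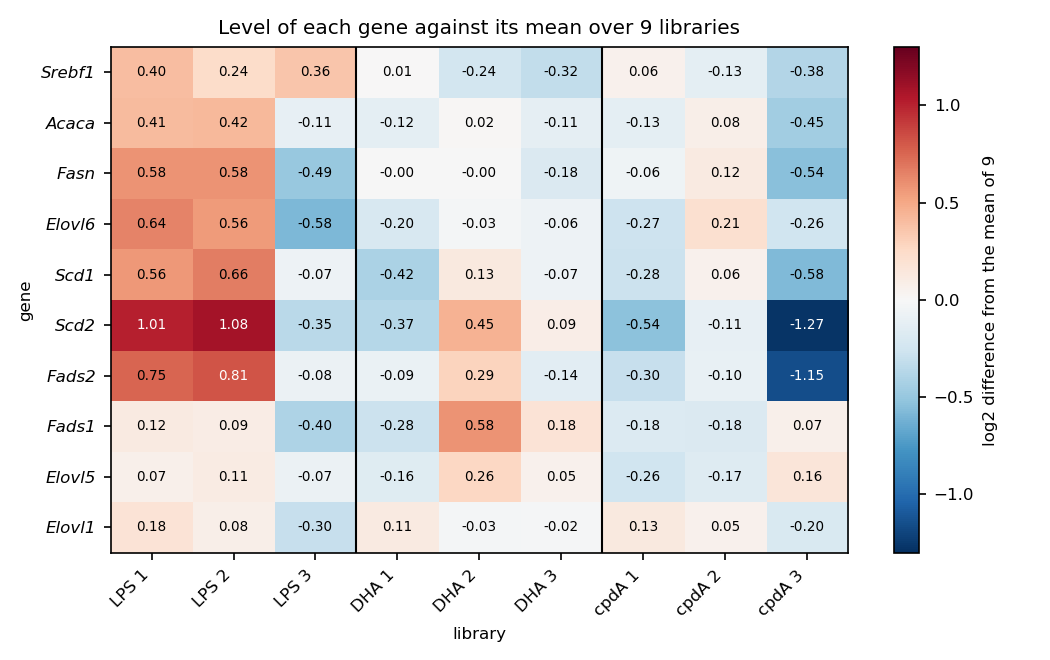
Log2 difference of each gene from its own mean over 9 libraries (colour and printed value; red above the mean, blue below), with genes as rows and libraries as columns. Srebf1 alone is positive in all 3 LPS libraries, Fasn (-0.49) and Elovl6 (-0.58) are below their means in LPS 3, and Fads1 reaches its highest value (0.58) in DHA 2.

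The libraries of a group differed from one another in a gene-dependent way. Between LPS 1 and LPS 2, the 10 genes differed by a root mean square of 0.081 on the log2 scale. LPS 3 differed from the mean of LPS 1 and LPS 2 by -1.39 for Scd2, -1.18 for Elovl6, -1.07 for Fasn, -0.86 for Fads2, -0.68 for Scd1 and -0.52 for Acaca. For Fads1, Elovl1 and Elovl5 that difference was -0.51, -0.43 and -0.16, and for Srebf1 it was 0.04. LPS 3 thus had the regulator's mRNA at the level of the other controls and most enzymes below it. Against LPS 3 alone, the DHA mean was 0.41 higher for Scd2, 0.48 higher for Elovl6, while the difference for Srebf1 was -0.55. cpdA 3 differed from the mean of cpdA 1 and cpdA 2 by -0.95 for both Scd2 and Fads2, -0.57 for Fasn, -0.46 for Scd1 and -0.35 for Srebf1, and by 0.37 for Elovl5 and 0.25 for Fads1. Set against each other, cpdA 3 lay below LPS 3 by -1.08 for Fads2, -0.92 for Scd2, -0.75 for Srebf1, -0.51 for Scd1 and -0.35 for Acaca, and differed by -0.05 for Fasn. It lay above LPS 3 by 0.47 for Fads1, 0.32 for Elovl6, 0.23 for Elovl5 and 0.10 for Elovl1. The part of the marker levels of these libraries in these values was not tested.

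Counted over the set, 0 of the 10 genes passed limma with DHA against LPS in 9 libraries, and 0.0072% of all genes did (1 gene, Cpt1a, of the fatty acid oxidation enzyme CPT1A, a rise). With cpdA, 0 of the 10 passed, again against 0.0072% of all genes (Cpt1a). At an unadjusted p under 0.05 there was 1 of the 10 with DHA (Srebf1), where 14.2% of all genes were, and 5 with cpdA (Srebf1, Acaca, Scd1, Scd2 and Fads2), where 14.6% were. edgeR's quasi-likelihood test on recovered reads also called 0 with either agent. edgeR called 0% of genes lower with either agent. DESeq2 called 1 of 10 lower with DHA (1.13% of genes lower) and 2 of 10 lower with cpdA (1.68%). The groups did not overlap for 1 of 10 with DHA (Srebf1, lower), against 15% of all genes lower without overlap, and for 2 of 10 with cpdA (Srebf1 and Fads2, both lower), against 12.2%. Both shares lie near the background, and nothing about the set is read from them. The median difference of the 10 was -0.31 with DHA and -0.40 with cpdA, beside all-gene medians of -0.0007 and -0.0043, with 7 and 9 of the 10 below 0. Both comparisons use the same 3 LPS libraries, so their values are not independent of each other.

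Without LPS 3 and cpdA 3, limma called 6 of the 10 lower with DHA and none higher, where 4.04% of all genes were called lower and 6.79% in either direction. It called 3 of the 10 lower with cpdA, against 0.885% of genes lower and 1.6% in either direction. edgeR on these 7 libraries called 6 lower with DHA (4.87% of genes) and 4 with cpdA (1.02%). With replicate number as a block, limma called 4 lower with cpdA (Fasn, Scd1, Scd2 and Fads2), where 0.648% of genes were called lower. The median difference of the 10 was then -0.57 with DHA and -0.50 with cpdA. With DHA 1 also left out, 7 of the 10 were called lower with DHA (11.5% of all genes) and 7 with cpdA (2.84%). With cpdA 1 left out instead, 6 were called lower with DHA (2.74%) and 0 with cpdA (0.0288%), in a fit where cpdA 2 is the only cpdA library and is assumed to vary like the other groups. In the plot of both fits the intervals for Fasn are narrower in the 7 libraries, and those for Fads1 are not (with cpdA, -0.83 to 0.26 against -0.53 to 0.46).

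**Figure D3:**
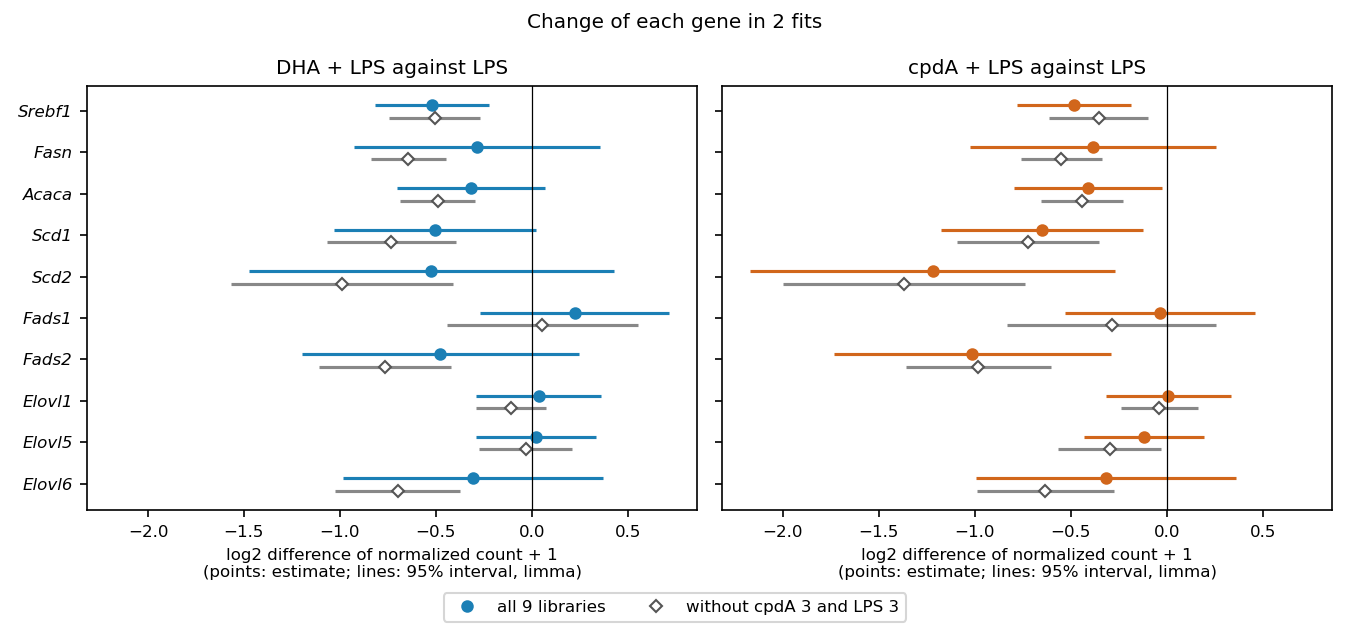
Log2 difference from LPS (x axis, normalized count + 1) of the 10 genes with DHA (left) and cpdA (right); points are limma estimates and lines 95% intervals, filled for all 9 libraries and open for the 7 without LPS 3 and cpdA 3. Without these libraries the points for Fasn and Elovl6 move from -0.29 and -0.30 to -0.64 and -0.70 with DHA, while Srebf1 stays near -0.50.

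The agents were given at different doses, 100 µM DHA and 10 µM cpdA, for the same time, so a difference between them is a difference between these treatments as given. No gene of the 10 passed limma for cpdA against DHA in 9 libraries, where 0% of all genes did. No gene of the 10 had an unadjusted p under 0.05, and edgeR and DESeq2 called none. The groups overlapped for all 10 genes, against 5.65% of genes without overlap. The difference for Srebf1 was 0.03 with a 95% interval of -0.26 to 0.33. Scd2 and Fads2 had the lowest estimates, -0.70 (95% interval -1.65 to 0.26) and -0.54 (95% interval -1.26 to 0.18), and those intervals hold both no difference and a sizeable one. The other estimates lay between -0.26 for Fads1 and -0.01 for Elovl6, and the adjusted p was 0.9999 for all 10 genes. Without LPS 3, cpdA 3 and DHA 1, 3 of the 10 were lower with cpdA than with DHA (5.1% of all genes called lower). These were Scd2 (-0.59, limma adjusted p = 0.0252), Fads1 (-0.56, limma adjusted p = 0.0020) and Elovl5 (-0.37, limma adjusted p = 0.0136). In each of these genes DHA 2 exceeded every cpdA library and DHA 1 did not, as was also so for Scd1, which did not pass. That fit rests on 2 libraries of each group, chosen after the data were seen.

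Ratios within a library cancel anything that scales both genes alike, and 3 ratios of related enzymes were compared in 9 tests. The Fads1 to Fads2 ratio of normalized counts was 3.31, 3.11 and 4.11 in LPS 1 to 3. It was 4.51, 6.31 and 6.43 in DHA 1 to 3, and 5.62, 4.84 and 12.1 in cpdA 1 to 3. Every treated library had a higher delta-5 to delta-6 mRNA ratio than every LPS library. On the log2 scale the ratio was 0.70 higher with DHA and 0.98 higher with cpdA, each with an exact two-sided permutation p = 0.1, the smallest that 3 against 3 can give, and 0.3 after Benjamini-Hochberg adjustment. The ratio did not separate cpdA from DHA (difference 0.28, exact permutation p = 0.8). The log2 ratio of Scd1 to Scd2 was -2.39, -2.36 and -1.67 in LPS 1 to 3, -1.99, -2.27 and -2.10 in DHA 1 to 3 and -1.69, -1.78 and -1.25 in cpdA 1 to 3. The cpdA libraries did not overlap the DHA libraries (difference 0.55, exact permutation p = 0.1, adjusted 0.3), and overlapped the LPS libraries through LPS 3. The log2 ratio of Elovl6 to Elovl5 ranged from -2.73 in LPS 3 to -1.65 in LPS 1, and its 3 comparisons had exact permutation p-values of 0.4 to 0.7.

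**Figure D4:**
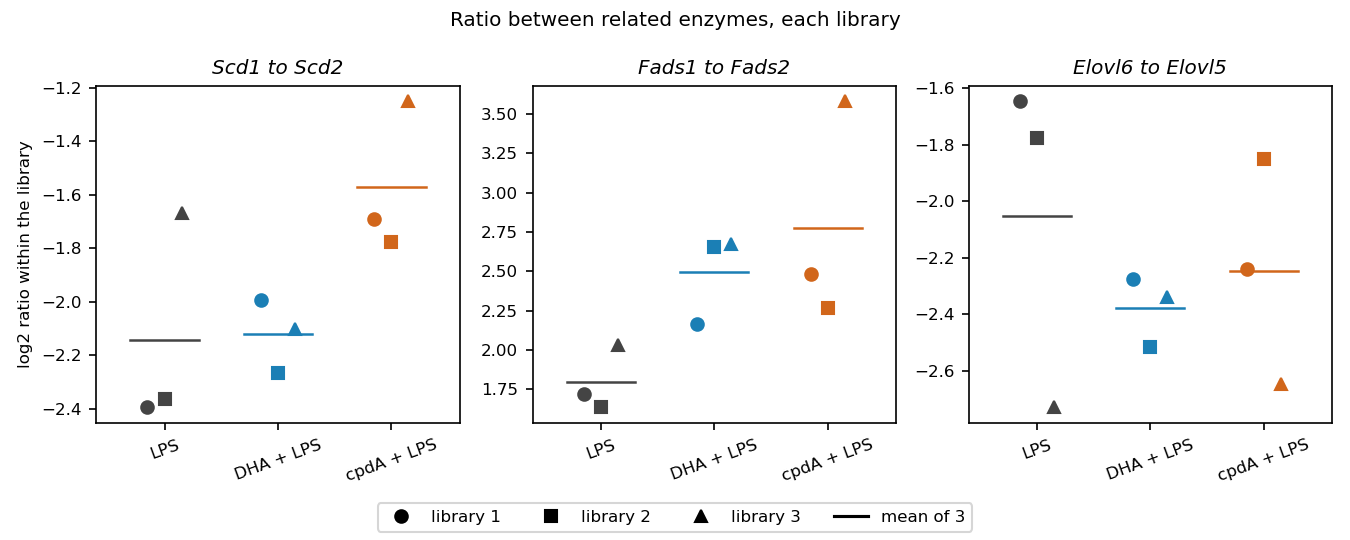
Log2 ratio of normalized counts between related enzymes (y axis; a separate scale for each panel) in each library, with the mean of 3 as a line. The Fads1 to Fads2 ratio lies between 1.64 and 2.03 in the LPS libraries and between 2.16 and 3.58 in the treated ones.

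Per length, the 10 genes spanned a wide range of levels. Normalized counts per kilobase of the longest annotated transcript averaged 2233 ± 376 (SD, n = 3) for Elovl1 in the LPS libraries. Srebf1 followed at 606 ± 36.1 and Scd2 at 596 ± 269, and these overlapped. Elovl5 had 373 ± 24.1, within the range of Scd2, and Fasn had 255 ± 93.4 and Fads1 223 ± 42.3, which overlapped each other. Scd1 had 142, between 101 and 169, and Acaca 134 ± 26.3, also overlapping. Fads2 had 71.9 ± 22.1 and Elovl6 44.8 ± 17.9, and their ranges overlapped through LPS 3. The LPS libraries did not overlap between Elovl1 and Srebf1, Elovl5 and Fasn, Fads1 and Scd1, or Acaca and Fads2. Scd2 changed places between groups: it had 596 ± 269 per kilobase with LPS, 388 ± 107 with DHA and 246 ± 93.3 with cpdA, where its mean lay below that of Elovl5 (345 ± 54.3) with overlapping libraries.

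The genes whose pattern over the 9 libraries lay nearest to that of Srebf1, by the root mean square difference of log2 values centred on each gene's mean, were Csf1 (0.066), Ptpn6 (0.081), Atp13a1 (0.082), Zfp513 (0.083) and Kansl3 (0.084), of 13885 genes outside the set. Csf1, the gene of macrophage colony-stimulating factor, had 7188, 6779 and 7027 normalized counts in LPS 1 to 3, 5526, 4330 and 4703 in DHA 1 to 3 and 5381, 5271 and 4169 in cpdA 1 to 3. Like Srebf1, it was highest in the 3 LPS libraries. The nearest gene to Srebf1 within the set was Acaca (0.228), which ranked 1770 among all genes by this distance. Among the enzymes, Fasn and Elovl6 lay near each other (0.1497), as did Acaca and Scd1 (0.156) and Fads1 and Elovl5 (0.169). Scd2 was nearest to Fads2 (0.220). These distances describe the 9 libraries, 2 of which stand apart, and carry no test.

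A wider list of 62 genes of the pathway, chosen with earlier results known, had 56 in the table and 55 past the filter. None passed in 9 libraries with either agent. At an unadjusted p under 0.05 there were 10 with DHA and 9 with cpdA, or 18.2% and 16.4%, near the 14.2% and 14.6% of all genes; edgeR called 0 and 0, and DESeq2 0 and 2. The median difference of the 55 was -0.01 with DHA and -0.04 with cpdA, beside -0.31 and -0.40 for the 10 genes. By role, medians were -0.13 and -0.03 for 12 SREBP and LXR control genes, and 0.08 and 0.17 for 10 genes of acetyl-CoA, malonyl-CoA and NADPH supply. They were 0.10 and -0.06 for 12 other elongation and desaturation enzymes, -0.01 and -0.04 for 13 genes of incorporation into lipids, and -0.40 and -0.43 for 4 LXR targets. The 4 genes of mitochondrial fatty acid synthesis, a separate route, had medians of -0.01 and -0.06. Mlxipl, Thrsp, Elovl3, Elovl4, Fads6 and Pnpla3 were not analysed here.

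**Figure D5:**
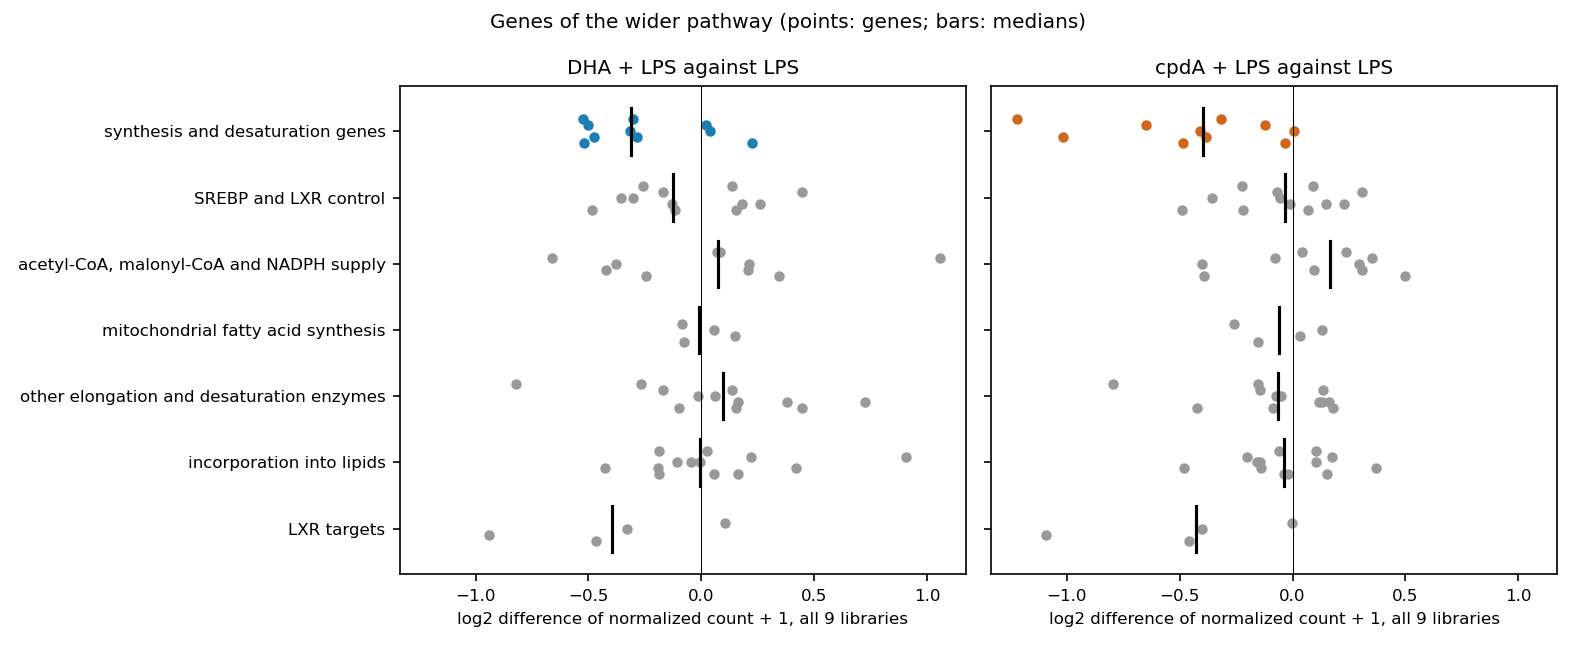
Log2 difference from LPS (x axis, normalized count + 1, all 9 libraries) of the 10 genes (top row) and of 55 further pathway genes by role, with DHA (left) and cpdA (right); each point is 1 gene and each bar a median. The top row has medians of -0.31 and -0.40, and the supply genes 0.08 and 0.17.

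Among the genes that govern SREBP1, Insig1, itself a target of SREBPs that retains SCAP in the endoplasmic reticulum, had 9223, 8636 and 4750 normalized counts in LPS 1 to 3. It had 5807, 5423 and 5715 in DHA 1 to 3 and 5702, 5956 and 5324 in cpdA 1 to 3. LPS 1 and LPS 2 were the highest of the 9 and LPS 3 the lowest. Without LPS 3 and cpdA 3, Insig1 fell by 0.66 with DHA (limma adjusted p = 0.0012) and by 0.61 with cpdA (limma adjusted p = 0.0066). Srebf2, the regulator of cholesterol synthesis, fell with DHA in those libraries (-0.36, limma adjusted p = 0.0349), as did Usf1, an E-box factor (-0.41, limma adjusted p = 0.0143). For Usf1 the LPS libraries lay above all treated ones, at 1529 to 1803 against 962.5 to 1334, as they did for 9.28% of all genes. Scap (0.12), Insig2 (-0.03) and Nr1h2 (-0.11) did not pass there with DHA. Nr1h3, the gene of LXRα, had 3598, 3547 and 3578 in LPS 1 to 3 and 3353, 2519 and 2872 in DHA 1 to 3. These did not overlap, and 15% of all genes were lower with DHA without overlap. With cpdA, Nr1h3 had 3304 to 3644. Its DHA difference was -0.30 in 9 libraries (SE 0.11, limma adjusted p = 0.295).

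Of the genes that supply synthesis, Acly, which makes cytosolic acetyl-CoA from citrate, and Slc25a1, which exports the citrate from mitochondria, fell with DHA in the 7 libraries, by 0.39 (limma adjusted p = 0.0169) and by 0.45 (limma adjusted p = 0.0054). Acss2, which makes acetyl-CoA from acetate, differed by -0.56 and did not pass (limma adjusted p = 0.0577). Me1, malic enzyme and a source of NADPH, lay the other way: it had 143.5, 142.9 and 141.2 in LPS 1 to 3, 187.3, 156.7 and 202.5 in DHA 1 to 3 and 172.5, 226.3 and 211.0 in cpdA 1 to 3. All 6 treated libraries of Me1 lay above the controls, and the differences of 0.34 and 0.50 did not pass in 9 libraries (limma adjusted p = 0.347 and 0.231). Without overlap with LPS, 9 of the 55 pathway genes lay lower with DHA and 4 with cpdA, against 15% and 12.2% of all genes. In the other direction, 8 lay higher with DHA and 7 with cpdA, and the share of all genes higher is not given here. Nothing about the pathway is read from these counts. Hsd17b12 and Tecr, which complete the elongation cycle that the ELOVL enzymes start, had differences of 0.06 and -0.02 with DHA and -0.05 and -0.07 with cpdA. Of the LXR targets, Mylip, a ubiquitin ligase for the LDL receptor, fell in the 7 libraries with DHA (-0.61, limma adjusted p = 0.0049) and cpdA (-0.58, limma adjusted p = 0.0233), and the cholesterol exporter Abca1 fell with DHA (-0.58, limma adjusted p = 0.0462). Cers5, a ceramide synthase, rose with DHA (0.42, limma adjusted p = 0.0397). In all, 7 of the 55 fell and 1 rose with DHA in the 7 libraries, where 4.04% of all genes fell and 6.79% changed. With cpdA, 2 of the 55 fell (Insig1 and Mylip), against 0.885% of all genes.

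Macrophage markers were present in all libraries, with all 8 of the list in the table. Of 7 adipocyte markers, which matter for lipogenic genes in peritoneal cells, only Lipe and Pparg were in the table, and both are made by macrophages too. Adipoq, Lep, Plin1, Cidec and Cfd were not analysed here. Summed markers of mesothelium and fibroblasts ran from 24332 to 39208 normalized counts in the LPS libraries, highest in LPS 3, from 25902 to 27660 with DHA and from 27538 to 31184 with cpdA. Their part in the differences above was not tested.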

How the data were processed

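RNA-seq of 9 libraries was deposited as 1 table with a signal value for each gene and library. The authors scaled whole reads with a size factor for each library: the deposited signal moves in equal steps, and DESeq is named, beside CASAVA 1.8.2, Bowtie2 and mm9, in the submitters' processing notes. How reads were counted, on which annotation and with what use of strand is not given in the sources used here. Protocols in the labels concern other material (neural stem cells, chromatin) and were set aside.

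Between 99.85% and 99.99% of values in a library were whole multiples of the worth of 1 read within 0.05, which gave back the reads and the depth. Genes with a value of at least 10 in 3 of the 9 libraries were kept (13895 of 15343). limma 3.58.1 (R 4.3.3, statmod 1.5.0) was fitted to log2(value + 1), a scale that understates changes of low genes, with group means of all 9 libraries, trend and robust moderation and Benjamini-Hochberg adjustment at 0.05. Alternatives were DESeq2 1.42.0 and the quasi-likelihood test of edgeR 4.0.16 on recovered counts, other pseudocounts (0.5 and 8), filters and scalings, a replicate block, a threshold of 0.01, each library left out, and combinations of libraries left out, with and without the block, that were chosen after the data were seen. Scripts were tested on simulated data. For cpdA against LPS, same-number libraries correlated at 0.387, 0.234 and 0.437. Libraries of unlike number reached 0.292 and 0.264, so no pairing is read from these values. The blocked fit of 9 libraries called none of the 10 genes.

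The 10 genes, the pathway and marker lists and the tests were chosen with earlier results of these data known. The text names all 10 genes, a fixed set of pathway genes (Srebf2, Scap, Insig1, Insig2, Nr1h3, Nr1h2, Acly, Acss2, Me1, Hsd17b12 and Tecr), any pathway gene called in 9 or 7 libraries, the 5 genes nearest to Srebf1, and Il6 and Il1b. Usf1, Slc25a1, Mylip, Abca1 and Cers5 entered by their calls. Transcript lengths and overlaps were taken from GENCODE M21 (GRCm38) and promoters from RefSeq (GRCm38.p6), while the values were made on mm9, so no coordinate of the values is given.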

Additional observations from a re-analysis of the deposited data

How the results depend on the processing

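Against LPS, Srebf1 kept its sign in all 26 alternatives, at -0.62 to -0.44 with DHA and -0.59 to -0.36 with cpdA. It passed in 7 and 2 of them. Fasn, Acaca, Scd1, Scd2, Fads2 and Elovl6 also kept their signs against LPS in all 26, with both agents. Counts of calls depended on the libraries and the tool. With DHA, 1 gene of the table was called in 9 libraries. The number was 3 with genes kept at 50 or more in 3 libraries, 3 with TMM scaling and 0 without the trend and robust options or at a threshold of 0.01. It was 9 from the 6 libraries compared alone, 309 in DESeq2 and 0 to 373 when 1 library was left out (373 without cpdA 3). Without LPS 3 and cpdA 3 it was 943, or 1162 in edgeR, and 3210 and 618 with DHA 1 or cpdA 1 also left out. With cpdA, again 1 gene in 9 libraries, the number was 0 without trend and robust options, from 6 libraries alone or at 0.01, 397 in DESeq2 and 0 to 3 with 1 library left out. Without LPS 3 and cpdA 3 it was 222, or 253 in edgeR, and 730 and 8 with DHA 1 or cpdA 1 also left out. For cpdA against DHA only the fit without LPS 3, cpdA 3 and DHA 1 called any gene (1215), with 3 of the 10 and 7 of the 55 pathway genes; each library left out in turn gave 0. The cause of these differences was not tested.

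Of the 10, 0 passed with DHA in 9 libraries, 0 to 1 with 1 library left out (Srebf1, without cpdA 3) and 1 in DESeq2. Shares in brackets are of all genes called lower, which were 1.58% without cpdA 3 and 1.13% in DESeq2. The number was 6 without LPS 3 and cpdA 3 in limma (4.04%) and in edgeR (4.87%), and 7 with DHA 1 also left out (11.5%). With cpdA, 0 passed in 9 libraries, 0 with 1 library left out and 2 in DESeq2 (1.68%). Without LPS 3 and cpdA 3 the number was 3 in limma (0.885%) and 4 in edgeR (1.02%), and 7 with DHA 1 also left out (2.84%). Of the 55 pathway genes, 0 passed with DHA in 9 libraries and 0 to 1 with 1 library left out. Without LPS 3 and cpdA 3, 8 passed (10 in edgeR), beside 943 (1162 in edgeR) of all 13895 genes. With DHA 1 also left out, 18 passed, beside 3210 of all genes. With cpdA, 0 passed in 9 libraries, 0 with 1 library left out and 2 in DESeq2 on 9 libraries, beside 397 of 12000 genes. Without LPS 3 and cpdA 3, 2 passed (2 in edgeR), beside 222 (253 in edgeR) of all genes. With DHA 1 also left out, 6 passed with cpdA, beside 730 of all genes.

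Directions that turned in these alternatives are given below. Set against LPS 3 alone, which was not among them, the DHA difference also turned for 5 of the 10 genes. It was 0.43 for Fasn, 0.41 for Scd2, 0.48 for Elovl6, 0.10 for Fads2 and 0.035 for Acaca. With DHA, Elovl1 went from 0.04 to -0.11 without LPS 3 and cpdA 3 (edgeR -0.11), to -0.15 and -0.11 with DHA 1 or cpdA 1 also left out, and ranged from -0.11 to 0.13 with 1 library left out. Elovl5 went from 0.02 to -0.032 (edgeR -0.014; -0.032 with cpdA 1 also left out), with a range of -0.084 to 0.13. With cpdA, Elovl1 was -1.757e-04 in edgeR and -1.609e-04 in DESeq2, -0.039 (limma) and -0.040 (edgeR) without LPS 3 and cpdA 3, -0.039 and -0.076 with DHA 1 or cpdA 1 also left out, and -0.14 to 0.11 with 1 library left out. Fads1 ranged from -0.20 to 0.056. For cpdA against DHA, values without LPS 3 and cpdA 3 in limma, in edgeR, and with DHA 1 or cpdA 1 also left out were 0.094, 0.10, 0.12 and 0.18 for Fasn, 0.048, 0.050, 0.023 and 0.15 for Acaca, 0.069, 0.069, 0.11 and 0.032 for Elovl1 and 0.065, 0.082, 0.011 and 0.30 for Elovl6. Elovl6 was 0.00310 in edgeR and 0.00350 in DESeq2 on 9 libraries. Scd1 was 0.0082 without LPS 3 and cpdA 3 and 0.18 with cpdA 1 also left out. With 1 library left out, this comparison ranged from -0.22 to 0.048 for Acaca, -0.10 to 0.069 for Elovl1, -0.17 to 0.070 for Elovl6, -0.23 to 0.094 for Fasn, -0.31 to 0.0082 for Scd1 and -0.072 to 0.15 for Srebf1. Of the ratios, Scd1 to Scd2 with DHA ranged from -0.11 to 0.26, Elovl6 to Elovl5 from -0.53 to 0.0076 with cpdA and from -0.067 to 0.33 for cpdA against DHA, and Fads1 to Fads2 for cpdA against DHA from -0.12 to 0.53, with -0.12 also without LPS 3 and cpdA 3. With 1 library left out, these permutation tests cannot go below p = 0.2.

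What links libraries of the same replicate number is not stated in the labels. Same-number LPS and cpdA libraries deviated together from their groups, with correlations across genes of 0.387, 0.234 and 0.437, over 0.1 in each pair, though LPS 2 with cpdA 1 (0.292) also exceeded 0.1. Values in the text come from fits with no block. Blocked values stand beside the results of the 10 genes whose call they change, which are cpdA results and Scd2 with DHA. Same-number correlations were 0.140, -0.065 and 0.020 for DHA and LPS, and 0.407, -0.345 and 0.013 for cpdA and DHA, libraries that share only a number. The highest correlation was of unlike numbers, 0.452 for cpdA 3 with DHA 2. With the replicate block, 0 genes of the table passed with DHA and 0 with cpdA, none of the 10 did, and Srebf1 had limma adjusted p-values of 0.261 and 0.293. In the 7 libraries, an added blocked fit called 549 genes with DHA and 171 with cpdA, 7 and 4 of the 10, and 4 and 2 of the 55. It gave -0.087 for Elovl1 and -0.032 for Elovl5 with DHA and -0.039 for Elovl1 with cpdA. For cpdA against DHA it gave 0.034 for Fasn, 0.028 for Acaca, 0.034 for Scd1, 0.048 for Elovl1 and 0.083 for Elovl6. The fewest reads were behind Fads2 and Elovl6 in DHA 1, whose values are the least precise.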
